A study of Rattus norvegicus with 7 samples.

Results

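Oxytocin and vasopressin and their receptors were described in hippocampus and hypothalamus of rats whose diet held docosahexaenoic acid (DHA), a long-chain omega-3 lipid of brain membranes. The genes are *Oxt* and *Avp*, which encode the peptide precursors, and *Oxtr*, *Avpr1a* and *Avpr1b*, which encode the oxytocin receptor and the V1a and V1b vasopressin receptors. These 5 genes were chosen by symbol from 15805 symbols listed for both tissues, and all 5 were found in both. The groups were DHA_hippocampus with 4 RNA-seq libraries and DHA_hypothalamus with 3. All came from male Sprague Dawley rats that were 2 months old when they were put on the DHA diet and that stayed on it for 6 weeks. The diet was common to both groups, so nothing here measures its effect, and animals without the supplement were not analysed here. The labels do not say whether libraries with the same number in the 2 tissues came from the same rat, or whether rats were pooled.

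Oxytocin and vasopressin are closely related peptides cut from larger precursors. Magnocellular neurons of the paraventricular and supraoptic nuclei of the hypothalamus make them, send them down axons to the posterior pituitary and release them into the blood, where oxytocin acts on uterus and mammary gland and vasopressin on kidney and vessels. Other hypothalamic neurons release them within the brain, and the suprachiasmatic nucleus, the circadian pacemaker, also makes vasopressin. Their receptors sit in the cell membrane and signal through G proteins; OXTR, V1a and V1b act through Gq, phospholipase C and calcium, whereas the V2 receptor of the kidney, encoded by *Avpr2*, raises cyclic AMP.

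*Oxt* and *Avp* are next to each other on chromosome 3 with no gene between them in the RefSeq gene order, and they are read towards each other from opposite strands. The 250 bases before each start are shown because these genes had the largest tissue differences among the 5. The sequences are RefSeq's, assembly GRCr8, and each is given 5′ to 3′ on its gene's strand. *Oxt* is on the plus strand (chr3:138235504-138235753) and *Avp* on the minus strand (chr3:138248523-138248772). Capitals mark every match on either strand to TGACC (a half-site read by several nuclear receptors), CACGTG (an E-box form read by clock and other helix-loop-helix factors) and the run CATAAA, which resembles the box that places the start of many promoters.
Oxt: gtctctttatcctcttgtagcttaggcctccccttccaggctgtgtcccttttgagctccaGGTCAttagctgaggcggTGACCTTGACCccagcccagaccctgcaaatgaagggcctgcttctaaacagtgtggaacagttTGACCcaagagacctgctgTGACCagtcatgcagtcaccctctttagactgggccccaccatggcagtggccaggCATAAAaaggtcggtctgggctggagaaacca
Avp: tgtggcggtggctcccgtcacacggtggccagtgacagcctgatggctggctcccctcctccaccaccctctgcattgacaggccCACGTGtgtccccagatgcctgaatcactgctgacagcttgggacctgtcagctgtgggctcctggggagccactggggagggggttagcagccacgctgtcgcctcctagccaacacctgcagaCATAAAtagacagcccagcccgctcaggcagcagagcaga

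The *Oxt* window held 5 TGACC matches, the first bases of which lay 189, 171, 165, 107 and 88 bases before the start. The matches at 171 and 165 together form a direct repeat of TGACC, both on the gene's strand and 1 base apart. Over the same window of 27457 RefSeq promoters, 35.2% held at least 1 TGACC, 0.0473% (13 promoters) held 5 or more, and 0.0728% held the direct repeat. The *Avp* window held no TGACC and 1 CACGTG, at 165 bases before the start, which 5.79% of promoters held. Both windows held 1 CATAAA, at 32 bases in *Oxt* and 40 bases in *Avp*, against 11.2% of promoters. In the other windows, *Oxtr* had 2 TGACC, *Avpr1b* had 1 CATAAA, and *Avpr1a* had neither but 1 TATAAA, found in 13.1% of promoters. These matches describe letters only, and the motifs were chosen with the sequences in view.

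Levels are FPKM, fragments scaled to transcript length and library size, as the authors deposited them in 1 table per tissue. FPKM is per length, and levels of different genes are set side by side here as deposited values only. Scaling to length does not make such levels fully comparable. *Npy*, *Hprt1* and *Ppia*, given below, were listed low or as undetected although they are known to be expressed. A deposited value can thus understate a gene, and ratios between genes carry that limit. The deposited values summed to between 370020 and 391349 in hippocampus and to between 443335 and 471484 in hypothalamus. FPKM holds no counts, so absolute depth is unknown. From the spacing of low values, the worth of a fragment in replicate 2 over that in replicate 3 was 1.51 in hippocampus and 0.884 in hypothalamus, the larger worth meaning fewer fragments. Low values of replicate 1 of each tissue shared no such step with the other libraries. The tissue labels were checked on marker genes. All 8 hypothalamic markers, among them *Hcrt* and *Pmch*, were higher in every hypothalamus library, and all 6 hippocampal markers, among them *Slc17a7* and *Neurod6*, in every hippocampus library.

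*Oxt* was among the most abundant transcripts of hypothalamus and was listed at 0 in hippocampus. Hypothalamus replicates 1 to 3 read 2966, 1024 and 2000.3 FPKM, a mean of 1996.5 ± 971 (SD, n = 3). All 4 hippocampus libraries read 0. The hypothalamus libraries were spread widely, with replicate 1 at 2.90 times replicate 2, but none came near the hippocampus values. *Oxt* ranked 8, 33 and 10 among the 17738 hypothalamic loci of replicates 1 to 3 and held 0.669%, 0.226% and 0.424% of the summed FPKM. No fold is given against hippocampus, since a value of 0 in these tables need not mean that no transcript was present: *Npy*, named after its values were seen and well known in both tissues, was listed at 0 in all 7 libraries. The widely expressed genes *Hprt1* and *Ppia*, also named after their values were seen, were low and differed between the tables. *Hprt1* read 0.708 to 1.52 FPKM in hippocampus and 0, 0 and 0.0403 FPKM in hypothalamus, and *Ppia* 4.77 to 7.37 against 0.0927 to 1.38 FPKM. A difference between the tissues can thus also be one between the tables, and the 2 cannot be told apart. In bulk tissue, fewer cells of a type and less RNA per cell cannot be told apart, here and in all comparisons that follow.

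*Avp* had the highest mean FPKM of the 5 genes in hypothalamus. Replicates 1 to 3 read 2818, 3712 and 3229 FPKM, a mean of 3253 ± 447.5 (SD, n = 3), and ranked 10, 6 and 7 among all loci. They held 0.636%, 0.821% and 0.685% of the summed FPKM. In hippocampus, replicates 1 to 4 read 2.07, 0, 0.337 and 0.297 FPKM. Replicate 1 was the high library there, and the lowest hypothalamus library still lay 1359-fold above it. Of the 8 hypothalamic markers, 2 were also highest in hippocampus replicate 1. Of these 2, only *Pomc* stood apart, at 5.07 FPKM there against 0.192 to 0.734 in the others. *Nkx2-1* was nearly level over replicates 1 to 3, at 0.230, 0.215 and 0.225 FPKM, with 0.0619 FPKM in replicate 4. *Hcrt*, at 2.06 to 2.53 FPKM over the hippocampus libraries, and *Pmch*, at 0.449 to 0.876 FPKM, were not highest in that library. The part of hypothalamic tissue in the hippocampal *Avp* value was not tested.

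*Avp* and *Oxt* overlapped in level within hypothalamus. *Avp* was above *Oxt* in 2 of the 3 libraries, at 3.63 times in replicate 2 and 1.61 times in replicate 3, and slightly below it in replicate 1, at 0.95 times. The mean log2 ratio within libraries was 0.83 ± 0.97 (SD, n = 3), so the difference between the peptide genes was smaller than its spread. Without replicate 2 the mean log2 ratio was 0.31 and without replicate 1 it was 1.27. These ratios do not depend on how a library was scaled.

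*Oxtr*, the gene of the oxytocin receptor, was low in both tissues. Hippocampus replicates 1 to 4 read 1.01, 0.978, 1.03 and 1.47 FPKM, a mean of 1.12 ± 0.230 (SD, n = 4). Hypothalamus replicates 1 to 3 read 1.57, 2.22 and 2.81 FPKM, a mean of 2.20 ± 0.622 (SD, n = 3). In these deposited values the tissues did not overlap, with the lowest hypothalamus library at 1.07 times the highest hippocampus library. After each library was rescaled to the same sum they did overlap, with that ratio at 0.888. This overlap came from hippocampus replicate 4, at 4.20 rescaled FPKM against 3.73 in hypothalamus replicate 1. The other hippocampus libraries read 2.75 to 3.01 rescaled FPKM. The tissues also overlapped under upper-quartile and median-of-ratios scaling, so whether they separated for *Oxtr* depended on the scaling. In the hypothalamus libraries, *Oxt* stood at 1893, 461 and 712 times the FPKM of *Oxtr*.

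*Avpr1a*, the gene of the V1a receptor, which mediates vasopressin action in brain, liver and vessel walls, was higher in hypothalamus, with no overlap of libraries in deposited or rescaled values. Hippocampus replicates 1 to 4 read 0.525, 0.898, 0.681 and 0.504 FPKM, a mean of 0.652 ± 0.182 (SD, n = 4). Hypothalamus replicates 1 to 3 read 2.74, 3.11 and 4.29 FPKM, a mean of 3.38 ± 0.810 (SD, n = 3). In deposited values the means differed 5.18-fold, and the lowest hypothalamus library lay 3.05-fold above the highest hippocampus library. After rescaling these folds were 4.20 and 2.59. Such a separation towards hypothalamus was found for 24.4% of the symbols compared after rescaling (below 2-fold differences included). *Avp* stood at 1029, 1194 and 752 times the FPKM of *Avpr1a* in hypothalamus replicates 1 to 3.

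*Avpr1b*, the gene of the V1b receptor, known from corticotropes of the pituitary and from pyramidal cells of hippocampal area CA2, was listed at 0 in all 7 libraries. It has 2 loci in each table, and each of them was at 0 throughout. How fragments that match both loci were counted is not given in the sources used here, so these zeros need not mean absence. Such a listing is not rare. Of symbols with several loci, 17.7% in hippocampus and 22.8% in hypothalamus were at 0 in every library, as were 17.4% and 16.9% of symbols with 1 locus. Of the 5 listed CA2 genes found in both tables, by the call rule of a 2-fold difference without overlap given further on, 2 were called higher in hippocampus and 2 in hypothalamus, beside 14.5% and 13.4% of all symbols. *Rgs14*, at 29.5 to 38.7 against 3.23 to 4.99 FPKM, and *Necab2*, at a mean of 106 against 57.3 FPKM, were the hippocampal calls, and *Necab2* was not called with FPKM as deposited. *Amigo2*, at 9.75 against 34.9 FPKM, and *Pcp4*, at 36.4 against 781 FPKM, were the hypothalamic calls.

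**Figure D1:**
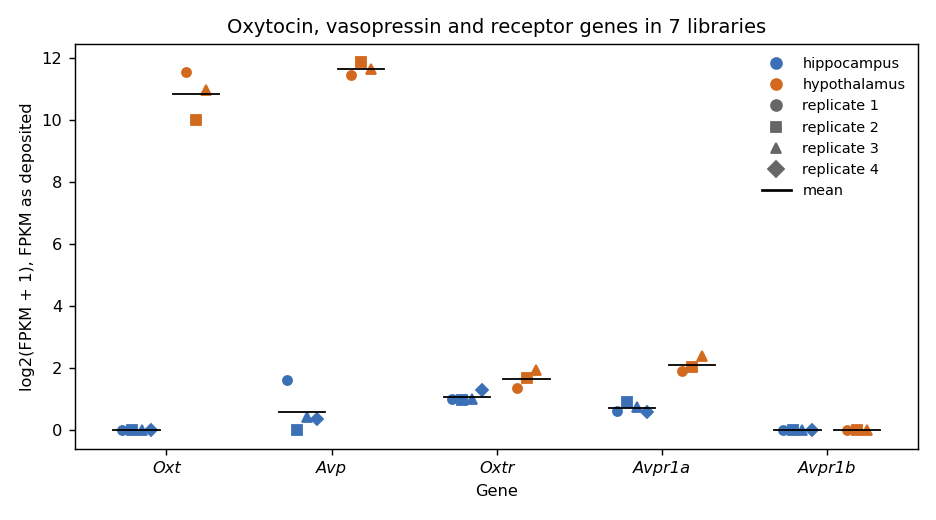
Level of each gene in each library as log2(FPKM + 1) of the deposited values, with a bar at the tissue mean (4 hippocampus and 3 hypothalamus libraries). *Oxt* and *Avp* stand far above both receptors in hypothalamus, *Avpr1b* lies at 0 in all 7 libraries, and the one hippocampus point of *Avp* that stands apart is replicate 1, at 2.07 FPKM.

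The order of the 2 detected receptor genes was opposite in the 2 tissues. Within each hippocampus library, *Oxtr* was above *Avpr1a*, at 1.93, 1.09, 1.51 and 2.91 times its FPKM in replicates 1 to 4. Within each hypothalamus library *Oxtr* was below *Avpr1a*, at 0.572, 0.715 and 0.655 times. The mean difference of log2(FPKM + 1), *Oxtr* minus *Avpr1a*, was 0.36 ± 0.27 in hippocampus (SD, n = 4) and −0.46 ± 0.10 in hypothalamus (SD, n = 3). The ratios of FPKM carry no library scale, whereas the log2 differences depend on the added 1 at these low levels, and the tissues were quantified in separate tables. In hippocampus replicate 2 the receptors were nearly level. By level, hypothalamus thus ran from *Avp* and *Oxt*, which overlapped, down to *Avpr1a* and *Oxtr*, which overlapped across libraries at 2.74 and 2.81 FPKM though not within any. *Avpr1b*, listed at 0, was given no place in the order. In hippocampus the order of means was *Oxtr*, *Avp* and *Avpr1a*. The place of *Avp* rested on replicate 1: without it the mean of *Avp* fell from 0.677 to 0.212 FPKM, below *Avpr1a* at 0.694 FPKM. *Oxtr* lay above *Avpr1a* without overlap, the range of *Avp* spanned both, and *Oxt* and *Avpr1b* were listed at 0.

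**Figure D2:**
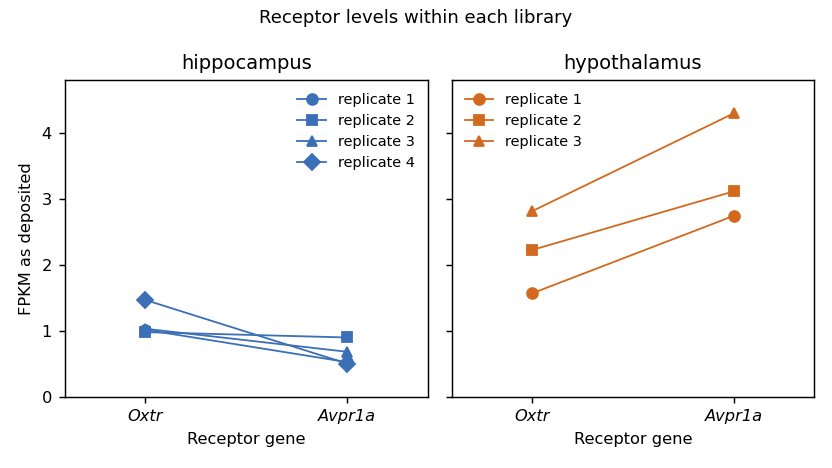
FPKM as deposited of *Oxtr* and *Avpr1a*, joined by a line for each library, in hippocampus (left) and hypothalamus (right). Every hippocampus line goes down from *Oxtr* to *Avpr1a* and every hypothalamus line goes up.

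To set the tissues side by side across all genes, the FPKM of each library were multiplied so that the common symbols summed to 1000000. A symbol that averaged 1 FPKM or more in either tissue was called higher in a tissue when all its libraries lay above all those of the other and the means of log2(rescaled FPKM + 1) differed by at least 1, that is 2-fold. Tables were quantified separately, so tissue and table cannot be told apart and no test was made. Of the 5 genes, 4 were compared and *Avpr1b* was not. Of the 4, *Oxt*, *Avp* and *Avpr1a* were called higher in hypothalamus and none in hippocampus. Over all 10736 compared symbols, 13.4% were called higher in hypothalamus and 14.5% in hippocampus. With FPKM as deposited, hippocampus took 33.8% of calls in place of 52.0%, and the median over all symbols moved from −0.05 to 0.21 (hypothalamus minus hippocampus, log2 scale), but the same 3 of the 5 genes were called. On this log2 scale the *Avp* difference was 11.71, that of *Avpr1a* 1.63 and that of *Oxtr* 0.52.

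Spread among replicates was compared with that of all loci that averaged 1 FPKM or more. The SD of log2(FPKM + 1) in hypothalamus was 0.78 for *Oxt*, against a median of 0.25 over 11483 loci, and 94.6% of those loci varied less. *Avp* had an SD of 0.20, and 36.4% of loci varied less. The receptors lay near the middle, with *Oxtr* at 0.29 (58.0% of loci varied less) and *Avpr1a* at 0.26 (51.6%). In hippocampus *Oxtr* had an SD of 0.15, against a median of 0.24. *Avp* and *Avpr1a* averaged under 1 FPKM there. Their SDs were 0.70 for *Avp*, with 92.0% of loci varying less, and 0.16 for *Avpr1a*. *Oxt* was thus the one gene of the 5 whose hypothalamus libraries varied far more than most transcripts.

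The hypothalamus libraries ordered *Oxt* and *Avp* in different ways. *Oxt* ran from replicate 1 through replicate 3 to replicate 2, and *Avp* from replicate 2 through replicate 3 to replicate 1. Of 8200 symbols that averaged 5 FPKM or more in hypothalamus, 23.4% had the order of *Oxt* and 10.1% that of *Avp*. Only 20 symbols (0.244%), *Oxt* included, had the order of *Oxt* with a ratio of highest to lowest library at least as large. The largest ratios among them were those of *Nkiras1* (6.07), *Fahd1* (5.55) and *Gstm1* (5.17), which are not on the peptide lists. *Pmch*, the precursor gene of melanin-concentrating hormone of the lateral hypothalamus, was also among the 20. It read 1330, 375 and 773 FPKM in replicates 1 to 3, a ratio of 3.54. *Cck*, which encodes cholecystokinin, a peptide that magnocellular oxytocin neurons also make, was another, at 153, 52.4 and 54.3 FPKM. Its replicates 2 and 3 were nearly level, so the shared order rested mainly on replicate 1. In hippocampus, where *Oxt* was listed at 0, *Cck* was also highest in replicate 1, at 457 FPKM against 186 to 204 FPKM. *Hcrt*, the orexin precursor gene of the lateral hypothalamus, kept the order of *Oxt* with a smaller ratio, at 867, 333 and 757 FPKM. *Ghrh*, the growth hormone-releasing hormone gene of the arcuate nucleus, had the order of *Avp*, at 8.60, 38.5 and 17.5 FPKM. Of the 12 other peptide genes listed for these nuclei or as hypothalamic markers, 4 had the order of *Oxt* (*Cck*, *Pmch*, *Hcrt* and *Cartpt*), 2 that of *Avp* (*Ghrh* and *Pomc*) and 6 neither. With 3 libraries, these shared orders are a description.

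**Figure D3:**
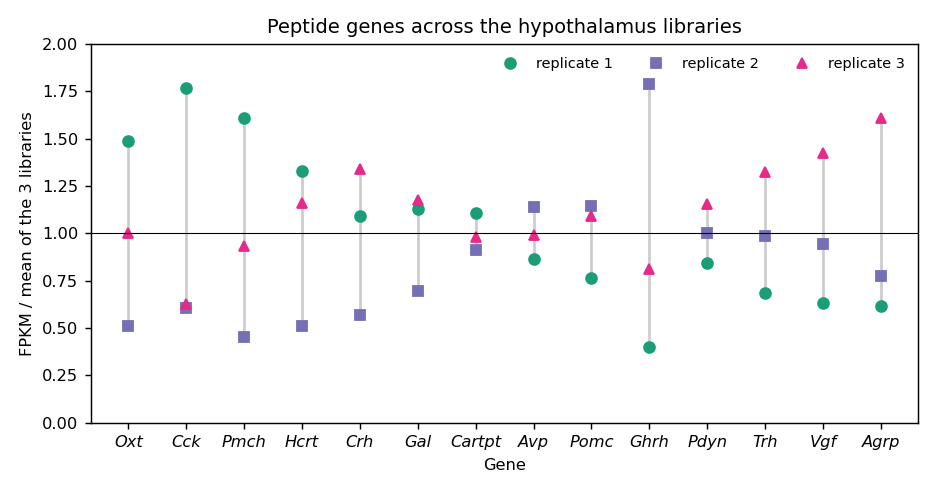
FPKM of 14 peptide genes in each hypothalamus library divided by the mean of the 3 libraries, with a grey line over the range. *Oxt*, *Cck*, *Pmch*, *Hcrt* and *Cartpt* are highest in replicate 1 and lowest in replicate 2, *Avp*, *Pomc* and *Ghrh* are highest in replicate 2 and lowest in replicate 1, and the other 6 are highest in replicate 3.

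Transcription factors that specify paraventricular and supraoptic neurons were mostly higher in hypothalamus. Of the 4 listed, 3 were called higher there and none in hippocampus, under each of the 4 scalings, beside 13.4% and 14.5% of all symbols. With a pseudocount of 5 the count was 2, without *Sim1*. The median difference was 1.80 on the log2 scale, and 1.30 under median-of-ratios scaling, the lowest of the 4. *Otp* read 9.36, 15.2 and 22.7 FPKM in hypothalamus replicates 1 to 3 and was listed at 0 in all hippocampus libraries. *Sim1*, which paraventricular and supraoptic neurons need to form, read 1.61, 1.28 and 1.13 FPKM against at most 0.00680 FPKM. *Pou3f2* read a mean of 13.2 FPKM against 3.46 FPKM. *Arnt2*, the partner of SIM1, was not called, at 25.1 against 25.6 FPKM.

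Peptides and enzymes that share these nuclei were also examined. Of 8 genes, 6 were called higher in hypothalamus, 1 in hippocampus, and *Nos1* was not called, beside 13.4% and 14.5% of all symbols. The hypothalamic count was 5, without *Pdyn*, with a pseudocount of 5, with the loci of a symbol summed, without hippocampus replicate 4 and without hypothalamus replicate 3. The median difference of the 8 was 2.29. *Trh*, the thyrotropin-releasing hormone gene, read 75.5, 108 and 145 FPKM in hypothalamus and 0.792 to 1.70 FPKM in hippocampus. *Crh*, the corticotropin-releasing hormone gene, read 7.13, 3.71 and 8.75 FPKM against 0.731 to 1.14 FPKM. *Gal*, which encodes galanin, read 79.6 to 134 FPKM against 1.76 to 2.92 FPKM. *Pdyn*, the dynorphin precursor gene that vasopressin neurons also use, read 36.7 to 50.2 FPKM against 10.3 to 26.5 FPKM. *Cck* was the gene called higher in hippocampus, where it read 186 to 457 FPKM.

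Genes for producing, trimming, releasing and degrading the peptides were examined next. *Pcsk1*, a convertase gene, and *Lnpep*, the listed gene for degradation, averaged under 1 FPKM in both tissues and were not compared. Degradation was therefore not assessed. Of 8 genes found in both tables, 6 were compared, of which 1 was called higher in hypothalamus and 2 in hippocampus. Over all symbols these shares were 13.4% and 14.5%, so the hypothalamic count was near the background. With FPKM as deposited the counts were 3 and 1. *Cd38*, whose product is needed for oxytocin secretion, was the gene called in hypothalamus, at 19.7 to 25.5 FPKM against 4.76 to 6.51 FPKM. *Pcsk2* and *Cpe*, which encode a prohormone convertase and carboxypeptidase E, were the hippocampal calls. *Cpe* read 598 to 862 FPKM in hypothalamus and 1158 to 2287 FPKM in hippocampus. *Pam*, the enzyme gene for amidating the peptide ends, was higher in every hypothalamus library but under 2-fold after rescaling, at a mean of 159 against 73.8 FPKM. *Creb3l1*, a transcription factor gene known to act on *Avp*, read 3.79, 13.4 and 8.84 FPKM in hypothalamus replicates 1 to 3 and 1.47 to 3.37 FPKM in hippocampus. It overlapped after rescaling. The hypothalamic count was 2 without hypothalamus replicate 1, without hippocampus replicate 3, and without replicate 1 of both tissues, a setting chosen after the data were seen in which *Creb3l1* was called.

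Genes of the Gq pathway below these receptors included several that were higher in hippocampus. The list also held *Avpr2*, a receptor gene of another pathway. Of its 12 genes found in both tables, *Avpr2* and *Plcb2* were too low to be compared. Of the other 10, 5 were called for hippocampus and 1 for hypothalamus, beside 14.5% and 13.4% of all symbols. The median difference was −1.17. *Itpr1*, the calcium-release channel gene, averaged 116 FPKM in hippocampus against 16.3 FPKM in hypothalamus, and *Prkcb*, a protein kinase C gene, 116 against 27.1 FPKM. *Plcb4*, a phospholipase C gene, was the hypothalamic call, at 11.2 against 3.34 FPKM. Of the G protein genes, *Gna11* was called in hippocampus, at 71.4 against 28.2 FPKM, and *Gnaq* missed the 2-fold limit, at 105 against 65.7 FPKM. It was called in hippocampus, making the count 6, without hippocampus replicate 1, without hypothalamus replicate 1 and without both. With FPKM as deposited the hypothalamic count was 2, with *Rgs4*, a regulator of G protein signalling, at 59.1 against 27.8 FPKM. *Avpr2* was under 1 FPKM in every library, at 0 to 0.729 in hippocampus and 0.267 to 0.609 in hypothalamus.

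**Figure D4:**
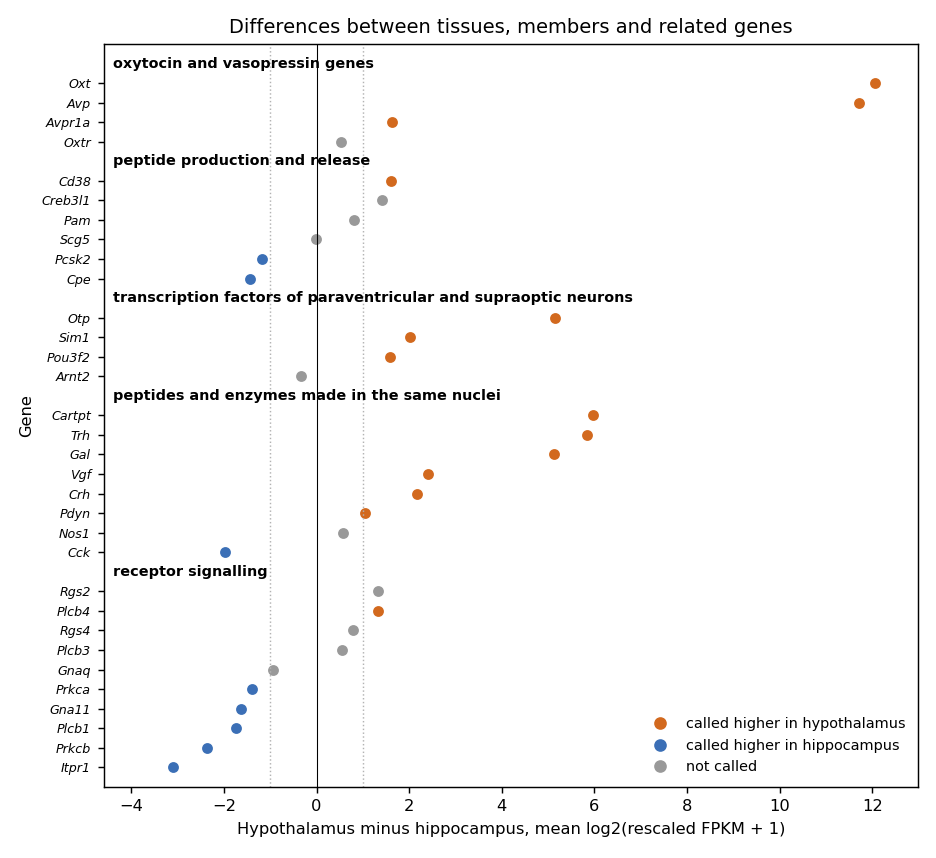
Difference between tissue means, hypothalamus minus hippocampus, in log2(rescaled FPKM + 1) for the compared genes of the oxytocin and vasopressin set and of the 4 related lists, coloured by call, with dotted lines at 2-fold. *Oxt* (12.06) and *Avp* (11.71) lie far to the right, *Avpr1a* and most of the nuclei's other peptides to the right, and 6 of the 10 receptor signalling genes to the left of 0. The *Oxt* position is set by the added 1, since hippocampus was listed at 0.

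Marker genes of other cells that carry these receptors or adjoin the dissections were measured in the same libraries. For vascular smooth muscle, where V1a receptors occur, summed FPKM of the list ran from 33.1 to 999.9 in hippocampus (4 genes) and from 70.1 to 656 in hypothalamus (5 genes), and none of the 4 genes in both tables was called. Hypothalamus replicate 3, the highest for *Avpr1a*, was the lowest for *Acta2*, at 17.7 FPKM against 167 and 240 FPKM. That is 1 library, and the part of vessels in the *Avpr1a* values was not tested. Of 5 astrocyte genes, *Aqp4* and *Aldh1l1* were called higher in hypothalamus, beside 13.4% of all symbols. *Gfap*, *Slc1a3* and *Gja1* overlapped after rescaling, and *Gja1* had the lower mean in hypothalamus, at 166 against 176 FPKM. The list summed to 939.8 to 1322 FPKM in hypothalamus against 603 to 747 FPKM, in deposited values, whose totals were themselves higher in hypothalamus. Its part in the *Avpr1a* difference was not tested. Choroid plexus genes summed to between 35.0 and 5997 FPKM in hippocampus (7 genes) and to between 44.4 and 78.6 FPKM in hypothalamus (8 genes). The hippocampus sum was lowest in replicate 2, which was the highest hippocampus library for *Avpr1a*. The part of choroid plexus in the *Avpr1a* values was not tested. Of 7 anterior pituitary genes, 4 were called higher in hypothalamus, beside the same 13.4%, and the list summed to 102 to 325 FPKM against 0.524 to 1.37 FPKM. *Cga*, the shared glycoprotein hormone subunit gene, read 70.4, 282 and 183 FPKM, whereas *Prl* was listed at 0 in all libraries and *Gh1* was at most 0.237 FPKM. The part of pituitary tissue in these values was not tested, and a listing at 0 need not mean absence. For the suprachiasmatic nucleus, 2 of 7 genes were called higher in hypothalamus and 1 in hippocampus, the latter near the 14.5% of all symbols (13.4% in hypothalamus). The hypothalamic calls were *Lhx1*, at 33.4 to 54.2 FPKM, and *Six6*, at 0.490 to 5.22 FPKM. *Grp* was the hippocampal call, at 13.6 against 6.67 FPKM, and was not called with FPKM as deposited. *Vip* was not called, at 4.99 to 9.71 FPKM against 8.55 to 9.42 FPKM.

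Neighbours in gene order were examined for the *Oxt* and *Avp* pair. *Mrps26*, a mitochondrial ribosomal protein gene next to *Oxt*, was called higher in hypothalamus, at 85.6, 48.3 and 61.1 FPKM in replicates 1 to 3 against 12.2 to 33.6 FPKM in hippocampus. Its hypothalamus libraries had the order of *Oxt*, as did 23.4% of the 8200 symbols above. *Ubox5*, a ubiquitin ligase gene next to *Avp*, overlapped between the tissues after rescaling, at 5.43 to 5.71 against 3.66 to 5.31 FPKM. The next gene on either side (*LOC134486445* and *Fastkd5*) was not among the symbols listed for both tissues.

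Genes most like each of the 4 detected genes were ranked by Pearson r of log2(rescaled FPKM + 1) over the 7 libraries, among symbols that averaged 5 FPKM or more in either tissue. For *Oxt* these were the locus labelled *Mir1949* (r = 0.9995), *Hcrt*, *Pou1f1*, *Klhl10* and *Tmem186* (r = 0.999 for these 4). For *Avp* they were *Tfg*, *Vof16*, *Rpl13a*, *Rpl29* and *Resp18*, from 0.999 down to 0.997. The difference between the tissues fixes most of these values, since 628 symbols (7.42%) reached an r above 0.95 with *Oxt* and 685 with *Avp*. For *Avpr1a* they were *Cisd3*, *Gpx3*, *Entpd3*, *Nyap1* and *Cacng2*, from 0.995 down to 0.989, and 388 symbols were above 0.95. *Oxtr* had few close matches: *Sumo3* (r = 0.975), *Peli2*, *Ppp1r11*, *Ncam1* and *Nqo2* led, and 7 symbols were above 0.95. The 7 points share libraries, tables and scaling.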

How the data were processed

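RNA-seq libraries of hippocampus (4) and hypothalamus (3) of DHA-fed rats were grouped by their titles. The authors deposited FPKM in 1 table per tissue, with a status word beside each value, per the file headers. TopHat, TopHat2, Bowtie, Bowtie2, Cufflinks, Cuffdiff and the build rn5 are named per the submitters' processing notes; roles, versions, annotation, strand setting and any scaling between tables are not given in the sources used here. Per the labels' protocols, RNA was poly-A selected and reverse transcribed with random primers.

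Loci whose status word was not OK throughout a tissue's libraries were dropped (86 of hippocampus, 24 of hypothalamus, none of them a locus of the 5 genes). The locus of highest mean stood for its symbol, and tables were joined on symbols, with unambiguous synonyms from the RefSeq gene table (GRCr8, used for names and gene order). Values were compared as log2(value + 1) after rescaling each library to the sum of 1000000, which understates changes of low genes. The call rule was tested on simulated data. FPKM gives no counts, so precision was taken from the spread between libraries. No test was made across tables. The genes, lists and rules were chosen with earlier results of these data known; the lists hold genes for peptide production, nuclei, receptor signalling, and markers of suprachiasmatic nucleus, CA2, pituitary, choroid plexus, smooth muscle, astrocytes and both tissues. Named genes were the 5 genes, the lists, the 5 symbols most like each by Pearson r, and the 2 neighbours on each side; others are named as chosen later. Alternatives were pseudocounts of 0.1 and 5, other scalings, summed loci, no filter, Spearman correlation and leaving out libraries. Python 3.11.15, numpy 2.4.6 and pandas 2.3.3 were used.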

Additional observations from a re-analysis of the deposited data

Results flagged for a closer look

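Within hippocampus, 35 of the members and related genes were checked for a library that stands apart, by Dixon's ratio, which sets its distance from the next value against the full range of the 4. The ratio passed its 95% critical value for 7 of them, where chance gives about 1 in 20, or 1.75, although these genes share libraries. *Avp* was one, highest in replicate 1 (ratio 0.837; 2.07 FPKM against 0 to 0.337). *Oxtr* was highest in replicate 4 (0.894; 1.47 FPKM against 0.978 to 1.03). *Cck* (0.933) and *Avpr2* (0.906) were highest in replicate 1. *Rgs2*, with 2 loci in the hippocampus table, was lowest there (0.909; 0.111 FPKM against 35.3 to 38.8). *Crh* was highest (0.835) and *Gna11* lowest (0.856) in replicate 4.

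*Oxtr* was above *Avpr1a* in every hippocampus library and below it in every hypothalamus library, and the difference of their mean log2(FPKM + 1) ratios, hypothalamus minus hippocampus, was −0.82. This difference was not tested.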

How the results depend on the processing

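No paired analysis was possible because the labels do not say that a number marks the same rat, and no test was made between the tables. The calls of *Oxt* and *Avp*, and the absence of one for *Oxtr*, held under all 14 alternatives. *Avpr1b*, at 0 throughout, could not be called under any. That of *Avpr1a* held under 13 and was lost with a pseudocount of 5, where its difference was 0.90. With a pseudocount of 0.1 it was 2.03, with upper-quartile scaling 1.30 and with median-of-ratios scaling 1.24. The *Avp* difference was 13.05 with a pseudocount of 0.1 and 10.16 with one of 5. The *Oxt* difference, which the pseudocount sets, was 15.38 and 9.74 with these, 10.83 with FPKM as deposited, 10.74 with upper-quartile scaling and 10.68 with median-of-ratios scaling. Symbols called higher in hippocampus numbered 928 with FPKM as deposited in place of 1560. The *Oxtr* to *Avpr1a* log2 ratio was 0.71 in hippocampus and −0.61 in hypothalamus with a pseudocount of 0.1, and 0.12 and −0.22 with one of 5; its sign held. Leaving out 1 library kept the *Avpr1a* difference between 1.49 and 1.74 and the *Oxtr* difference between 0.38 and 0.70. By Spearman correlation, none of the 5 genes most like *Avp*, 2 of those like *Oxtr* and 1 of those like *Avpr1a* were among the highest. The cause of these shifts was not tested beyond the construction of each setting. Levels near 1 FPKM, as for both receptors, rest on unknown numbers of fragments.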
